A study of Macaca fascicularis with 2 samples.

Results

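Cells positive for COL10A1, the gene for type X collagen, were selected from a single-cell RNA library of cynomolgus monkey cartilage and disc. A cell was chosen when it held 3 or more reads of COL10A1 and fewer than 5 reads of KRT19, a keratin that marks notochordal cells. Of 5674 cells that carried 1 of the 4 hashtags A951 to A954, 5311 had KRT19 under 5 reads, and 78 of these were COL10A1-positive. COL10A1 chose the cells, so its own level in them is given as a description and is no result.

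The library pooled cells of 2 wild-type male monkeys aged 3 years. From the first came nucleus pulposus (NP) of the L3/4 disc and articular cartilage (AC) of the left knee's femoral condyle, and from the second AC of the same site. The labels name no treatment, and the live cells were sorted before capture. The labels name 3 tissue samples, the cells carry 4 hashtags, and no source used here pairs a hashtag with a tissue or an animal. Values are therefore given for each hashtag, and no cell was assigned to AC or NP. The hashtags differed in cells with 5 or more KRT19 reads. These were 76 of 997 cells in A951, 271 of 1132 in A952, 6 of 1383 in A953 and 10 of 2162 in A954. Which hashtags held NP cells was not tested. With 1 library there is no replicate, no test was made, and every difference describes these cells alone.

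Type X collagen is a short-chain, network-forming collagen that chondrocytes of the growth plate and of calcifying cartilage make as they enlarge. Hypertrophic chondrocytes are known for IHH, RUNX2, MMP13, alkaline phosphatase and, later, SPP1 and IBSP, and PTHLH signalling through PTH1R holds them back. Type II collagen, aggrecan and SOX9 mark chondrocytes that have not entered this path.

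COL10A1-positive cells were 1.47% of the cells with KRT19 under 5 reads, with an exact binomial 95% interval of 1.16 to 1.83% that covers counting error only. By hashtag they were 18 of 921 cells in A951 (1.95%, 1.16 to 3.07%) and 11 of 861 in A952 (1.28%, 0.639 to 2.27%). In A953 they were 21 of 1377 cells (1.53%, 0.946 to 2.32%) and in A954 28 of 2152 cells (1.30%, 0.866 to 1.88%). The 4 intervals overlapped, so the cells were found in every hashtag at shares that these counts do not separate.

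Among the 363 cells with 5 or more KRT19 reads, which the rule left out, 3 also had 3 or more COL10A1 reads (0.826%, 0.171 to 2.40%), with 4, 4 and 44 reads. This interval includes the share among the other cells, at median depths of 172935 and 199212 reads per cell, so the share alone does not set the COL10A1-positive cells above what KRT19-positive cells showed. With any COL10A1 read counted, the shares were 5 of 363 (1.38%, 0.449 to 3.18%) and 219 of 5311 (4.12%, 3.60 to 4.69%).

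**Figure D1:**
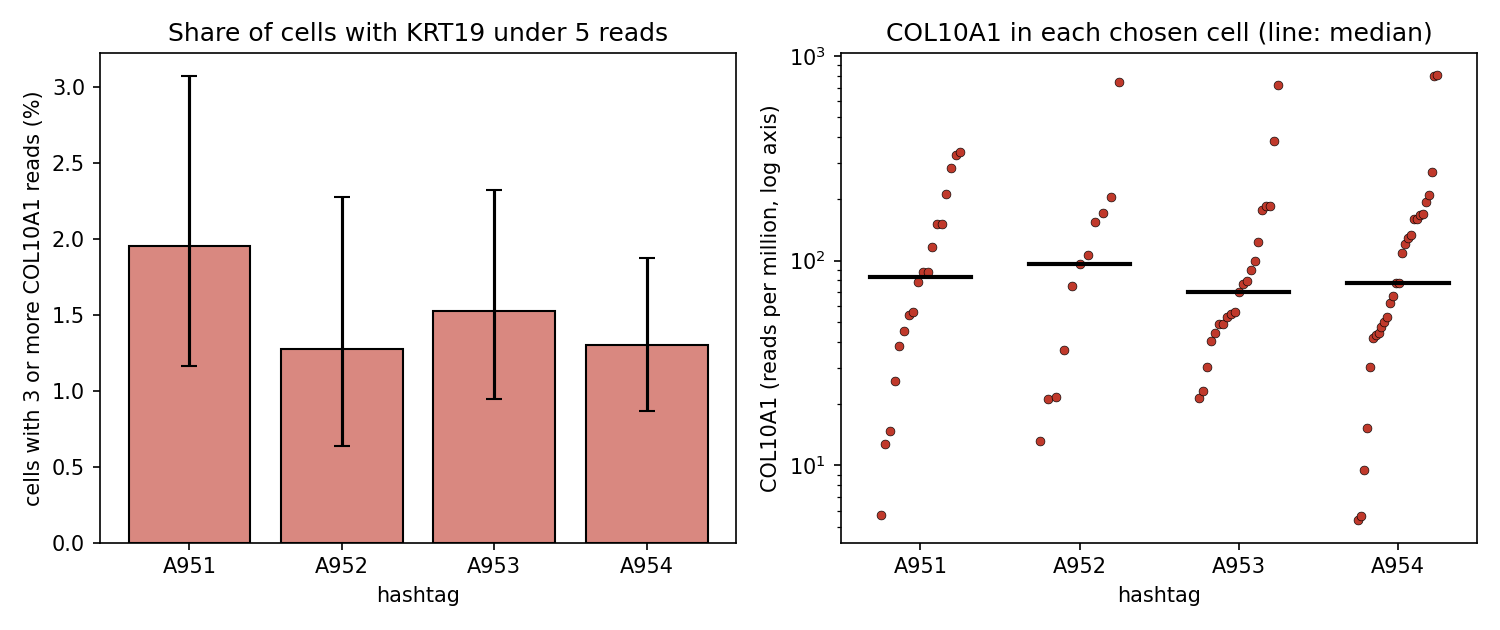
Left, bars give the share (%) of cells with KRT19 under 5 reads that had 3 or more COL10A1 reads in each hashtag, with exact 95% binomial intervals. Right, each point is a COL10A1-positive cell on a log axis of reads per 1000000 reads (rpm), and lines are medians. Shares lie between 1.28 and 1.95% with overlapping intervals, and the medians lie between 70.5 and 96.5 rpm.

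The COL10A1 reads were held by few cells. The 78 cells held 2592 of the 2748 COL10A1 reads in the 5311 cells (94.3%), and the 10 with the most held 39.4% of these 2592. A chosen cell had 3 to 160 reads, with a median of 23.5, or 5.38 to 804 reads per 1000000 reads of the cell (rpm) with a median of 77.9. The medians were 83.4 rpm in A951, 96.5 in A952, 70.5 in A953 and 77.9 in A954. Just outside the threshold, 126 cells had 1 read and 15 had 2, and just inside it 3 cells had 3 reads and 4 had 4. Few cells thus lay near the threshold on its inner side, and 60 of the 78 had 10 or more reads. The reads carry no molecular identifier, so several reads can be copies of 1 molecule.

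COL10A1-positive cells had more genes detected than the cells around them, with a median of 4374.5 against 3819 for all 5311 cells, and more reads, 255682 against 199212. Each was therefore set beside the 5 unused cells of its own hashtag that had 0 COL10A1 reads and were nearest in genes detected, out of 5092 such cells. The resulting 390 matched cells had a median of 4373 genes and 258018 reads. Their mitochondrial share was a median of 1.48%, against 1.45% in COL10A1-positive cells. Levels of a group are pooled rpm, which are all reads of a gene in the group per 1000000 reads of the group, and the log2 ratio compares COL10A1-positive with matched cells. The counted fragments come from transcripts whose length was not corrected for, so a gene is compared between groups of cells and not with another gene.

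COL10A1-positive cells carried the main genes of cartilage, at pooled levels close to those of the matched cells. COL2A1, which encodes type II collagen, was detected in all 78 cells and stood at 21763 rpm against 19784 in matched cells, a log2 ratio of 0.14. Its level in COL10A1-positive cells was above the matched level in 2 hashtags and below it in the other two. ACAN, the gene for the aggrecan core protein, stood at 4123 against 3669 rpm. SOX9, the transcription factor that keeps chondrocyte identity, was found in 92.3% of COL10A1-positive cells (72 cells of 78) and 88.7% of matched cells, at 361 against 334 rpm. All 7 chondrocyte markers were present in both groups. Of these, 6 had pooled log2 ratios of -0.07 to 0.19, and CNMD, described with the list for the restraint of hypertrophy, was lower at -1.21.

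A gene was compared where the mean share of cells with a read in the 2 groups was at least 10%, which held for 10076 genes. It was called higher or lower where the pooled log2 ratio reached 1 in size, had the same sign in all 4 hashtags, still reached 1 without the cell with the most reads of the gene in each group, and went with a difference in the share of cells of the same direction. Under this rule 60 genes were called higher in COL10A1-positive cells, which is 0.595% of those compared, and 320 were called lower, which is 3.18%. The median log2 ratio over all compared genes was -0.05. These percentages are the background for each list described here.

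The genes of chondrocyte hypertrophy did not stand apart in COL10A1-positive cells. Of 24 genes in the list of hypertrophy and its regulators, 21 were counted in the file and 16 were compared, and none of the 16 was called in either direction, on the pooled scale or on a scale in which each cell weighs the same. Their median log2 ratio was -0.29, with 5 above 0 and 11 below. IHH, the hedgehog ligand made at the onset of hypertrophy, had no read in any of the 78 cells and none in the 390 matched cells. For the 78 cells this allows a share with a read of up to 3.85% by 3 counts of 78. By the exact interval it allows up to 4.62%. Neither value limits the share of cells that express IHH without a read. MMP13, the collagenase of late hypertrophy, had a read in 1 COL10A1-positive cell and in 2 matched cells. SP7, a transcription factor of osteoblasts and hypertrophic chondrocytes, had a read in 4 COL10A1-positive and 14 matched cells.

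PTH1R, the receptor for the parathyroid hormone related protein, stood at 27.3 rpm in COL10A1-positive cells of A951 against 123 in its matched cells, at 161 against 127 in A952, at 70.1 against 159 in A953 and at 121 against 70.5 in A954. The hashtags went in both directions and the groups overlapped, for a pooled level of 89.4 against 111 rpm. RUNX2, the transcription factor that drives the path, was detected in 42.3% of COL10A1-positive cells (31.2 to 54.0%) and 33.3% of matched cells (28.7 to 38.3%). Its pooled level went the other way, 1.77 against 5.36 rpm, with 4 matched cells at 100 rpm or more and no COL10A1-positive cell at that level. FGFR3, a receptor that slows growth plate chondrocytes, stood at 136 against 86.4 rpm, above the matched cells in 3 of 4 hashtags, and was not called.

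The bone-matrix genes SPP1 and IBSP and the phosphatase gene ALPL had lower pooled levels in COL10A1-positive cells, and none was called. SPP1, or osteopontin, stood at 41.5 rpm in A951, 21.5 in A952, 177 in A953 and 21.3 in A954, against 1632, 511, 315 and 1578 rpm in the matched cells of the same hashtags. The matched level was higher in every hashtag, yet 10 of the 390 matched cells held 83.1% of its SPP1 reads. In the median cell SPP1 was at 20.5 rpm in COL10A1-positive and 18.3 rpm in matched cells, and it had a read in 96.2% and 94.9% of them.

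IBSP, the gene for bone sialoprotein, stood at 0.35 rpm against 14.96, and 10 matched cells held 97.3% of its matched reads. For ALPL the levels were 0.71 and 5.74 rpm and the share held by 10 matched cells was 94.4%. ALPL had a read in 12.8% of COL10A1-positive cells and 12.6% of matched cells.

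Counted per cell, COL10A1 did not come with more of its companion markers. Of 7 other hypertrophic chondrocyte markers in the file (IHH, PTH1R, RUNX2, MMP13, SPP1, IBSP and ALPL), the median cell had a read of 2 in both groups. With 5 or more reads of a marker required, 14 of the 78 COL10A1-positive cells (17.9%) and 81 of the 390 matched cells (20.8%) had 2 or more of them. The 5 of these markers that were compared had log2 ratios below 0, and their summed level was 162 against 1293 rpm, mostly SPP1 in the matched cells. The name hypertrophic-like was thus not borne out by other markers, and the cells are called COL10A1-positive here.

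**Figure D2:**
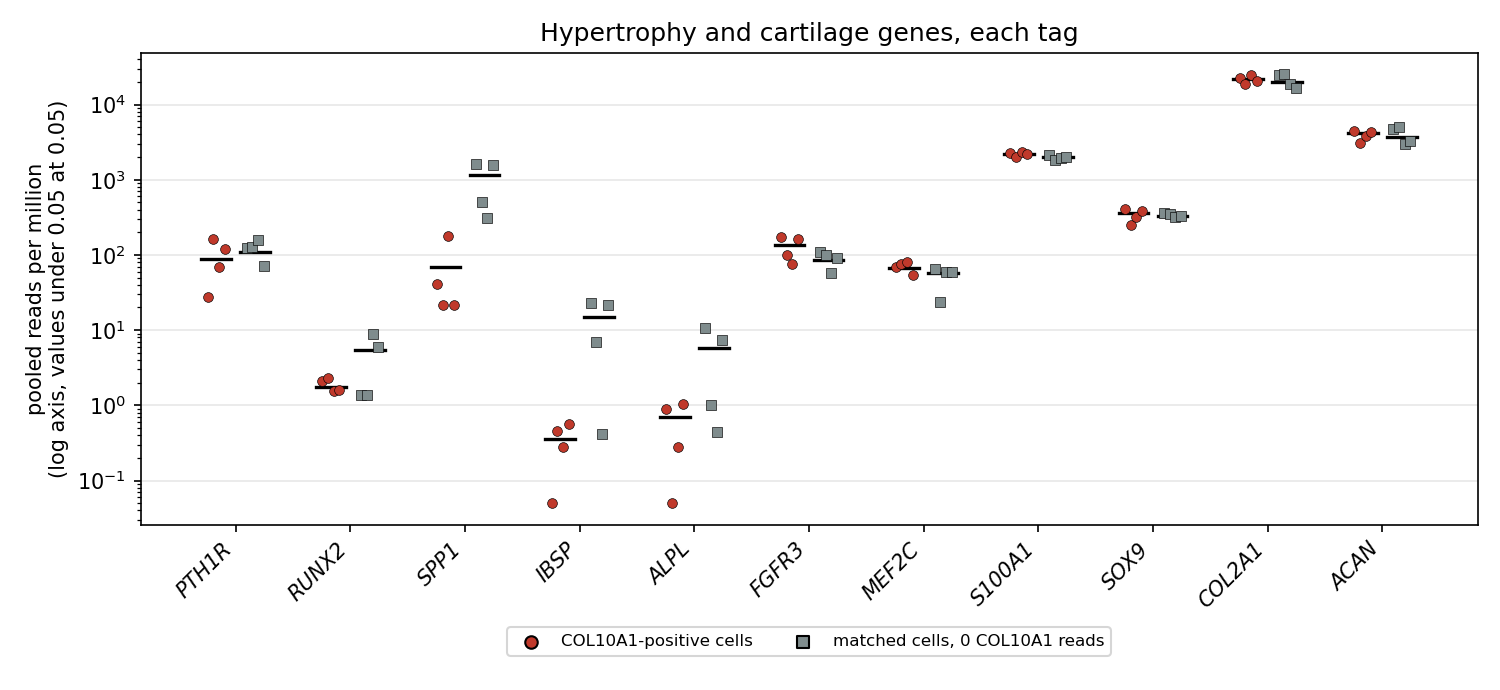
Pooled rpm on a log axis for hypertrophy and cartilage genes. Each circle is the COL10A1-positive cells of a hashtag, each square its matched cells, and lines are the level over all 4 hashtags. SPP1 was lower in COL10A1-positive cells in all 4 hashtags (69.4 against 1156 overall), while COL2A1, ACAN, SOX9 and S100A1 lay side by side in both groups.

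In the list drawn up for the restraint of hypertrophy, CHRDL2 was higher and CNMD was lower in COL10A1-positive cells, 1 of 11 compared genes in each direction. Whether either gene restrains hypertrophy in these cells was not tested. CHRDL2 encodes a secreted chordin-like protein that binds BMPs. It stood at 408 rpm in A951, 587 in A952, 109 in A953 and 107 in A954, against 96.0, 24.9, 39.5 and 30.7 rpm in matched cells. The COL10A1-positive level was above the matched level of the same hashtag in every case and above the highest matched level in all 4, for a pooled log2 ratio of 2.2 (215 against 46.9 rpm). CHRDL2 had a read in 71.8% of COL10A1-positive cells (60.5 to 81.4%) and 57.2% of matched cells (52.1 to 62.1%), and 29.5% and 11.0% held 100 rpm or more. Without the richest cell of each group the ratio was 2.09. It was called under 12 of 14 other settings. The 14 are the settings that could change a ratio, and 3 more that left the ratios as they were are not counted. With the next 5 nearest cells as the matched set the ratio was 1.63 and the rule was not met.

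CNMD, the gene for the cartilage protein chondromodulin, stood at 159 rpm in A951, 1.37 in A952, 70.3 in A953 and 73.8 in A954, against 310, 146, 217 and 136 rpm in matched cells. It was lower in each hashtag, with a read in 42.3% of COL10A1-positive cells (31.2 to 54.0%) and 53.1% of matched cells (48.0 to 58.1%). The pooled log2 ratio was -1.21, and with 1 matched cell per member it was -0.76. PTHLH, the hormone-like ligand that delays hypertrophy, was at 68.8 against 41.1 rpm and was above the matched cells in 2 of 4 hashtags. FRZB, a secreted WNT antagonist of articular chondrocytes, was at 2137 against 1740 rpm.

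Genes of the cartilage matrix lay close to their matched levels on the pooled scale. None of 17 compared genes of the cartilage matrix list was called, and their log2 ratios ran from -0.48 (MATN2, a matrilin) to 0.32 (SOX5) with a median of 0.13. Of these ratios, 12 were above 0 and 5 below. On the mean of log2(rpm + 1) over cells, the median difference of the list was 0.37, against -0.01 for all compared genes, and none was called. The 9 compared pericellular and network collagen genes ran wider, from -2.72 to 0.14 with a median of -0.25, and 6 were below 0. COL4A2, a chain of the basement membrane collagen, was called lower, at 3.15 against 12.2 rpm, and kept its call under 6 of 14 other settings. The ratio of COL4A2, -1.95, was -2.74 without A951 and -1.38, with the call lost, without A953. COL4A1, the partner chain, had the lowest ratio of the list at 0.39 against 2.59 rpm, with 10 matched cells holding 76.8% of the matched reads, and was not called. COL6A3, a chain of the pericellular type VI collagen, was at 47.3 against 96.9 rpm and was not called. The other network-forming collagen of the list that resembles type X, COL8A1, was at 5.75 against 5.98 rpm.

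In the list of superficial zone and fibrocartilage genes, 1 of 17 compared genes was called, COL1A2. It encodes a chain of type I collagen, the fibrillar collagen of bone and fibrous tissue, and stood at 3589 rpm in A951, 1888 in A952, 585 in A953 and 1287 in A954 against 594, 1449, 467 and 323 rpm in matched cells. The hashtags A952 and A953 differed little and the other two carried the ratio of 1.66. The median COL10A1-positive cell held 26.5 rpm and the median matched cell 25.96, and 21.8% against 14.9% of cells held 100 rpm or more. COL1A1, the partner chain, had a pooled ratio of 1.48 that was 0.10 without the richest cell of each group. The call of COL1A2 was kept under 5 of 14 other settings, and it was lost without A951 (1.14), with the next 5 nearest cells, with 1 and with 10 matched cells per member.

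PRG4, the gene for lubricin of the joint surface, stood at 18836 rpm in A951, 14770 in A952, 28405 in A953 and 12132 in A954 against 10704, 10100, 16825 and 13799 rpm. The median COL10A1-positive cell held 12653 rpm and the median matched cell 5572, and the pooled ratio of 0.43 was below the size for a call. On the mean of log2(rpm + 1) over cells it differed by 1.05. Since it had a read in all cells of both groups, it could not meet the rule on the share of cells, and the same holds for 127 other compared genes. ASPN and CILP, matrix genes of fibrocartilage, stood at 58.4 against 311 and 84.2 against 316 rpm. ASPN was lower in A953 (38.9 against 359 rpm) and A954 (50.5 against 443) and equal within a few percent in A951 (110 against 114) and A952 (26.5 against 26.2), so the rule was not met. TNC, the gene for tenascin-C, was at 155 against 342 rpm and lower in every hashtag, but a slightly larger share of COL10A1-positive cells had a read of it.

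The mineralization and protease lists held calls in the lower direction only, where the background was also larger. Of 11 compared mineralization genes, PHOSPHO1 and ENPP1 were called lower. PHOSPHO1, a phosphatase of matrix vesicles, was at 3.62 against 9.47 rpm, and ENPP1, which makes the mineralization inhibitor pyrophosphate, was at 75.4 against 160 rpm. ENPP1 was at 80.9, 73.2, 46.9 and 92.2 rpm in the 4 hashtags against 199, 188, 138 and 147 in matched cells, without overlap. The call of ENPP1 was kept under 4 of 14 other settings and lost with the next 5 nearest cells (-0.90), with 1 matched cell per member (-0.67), with 10 (-0.99), without A952 (-1.05) and without A953 (-0.95). PHOSPHO1 kept its call under 6 of 14, and not with the next 5 nearest cells, with 1 matched cell per member or without A954. ANKH, which sets pyrophosphate outside the cell, and MGP, an inhibitor of calcification, were at 893 against 912 and 6821 against 7393 rpm. Of 10 compared proteases and inhibitors, the collagenase gene MMP1 (1.81 against 77.9 rpm) and the aggrecanase gene ADAMTS5 (1.5 against 17.6 rpm) were called lower. MMP1 kept its call under 10 and ADAMTS5 under 6 of 14 other settings, and neither with 1 matched cell per member or without A953. For ADAMTS5, 10 matched cells held 91.1% of the matched reads, and its ratio of -3.55 was -1.66 without A953 and -6.96 without A954, with the call lost both times. For MMP1, 10 of the 390 matched cells held 88.7% of the matched reads, and 41.0% of COL10A1-positive against 44.6% of matched cells had a read, so the ratio of -5.43 described rare high cells.

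In the hedgehog list, 9 genes were compared and none was called higher. GLI2, a transcription factor of the pathway, was called lower, at 1.34 against 6.06 rpm, kept under 11 of 14 other settings. GLI1, a target of the pathway, went in the other direction at 10.3 against 8.11 rpm, with a read in 82.1% of COL10A1-positive and 74.1% of matched cells, and was not called. PTCH1, also a target, was at 7.71 against 11.8 rpm. SMO, the signal transducer, was at 63.6 against 44.2 rpm and was detected in 52.6% of cells (40.9 to 64.0%) against 37.7% (32.9 to 42.7%), higher in each hashtag but below the size for a call on the pooled scale.

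The BMP and TGF-beta list held 1 gene called higher and 1 called lower among 20 compared. SMAD1, which carries BMP signals to the nucleus, stood at 36.9 rpm in A951, 22.9 in A952, 47.1 in A953 and 80.4 in A954 against 10.6, 10.5, 21.0 and 15.2 rpm in matched cells. All 4 levels lay above all matched levels, with a read in 39.7% of COL10A1-positive cells (28.8 to 51.5%) and 27.2% of matched cells (22.8 to 31.9%). The pooled ratio was 1.88 and the call was kept under 10 of 14 other settings, though not with the next 5 nearest cells. LTBP2, a TGF-beta binding matrix protein, was called lower at 3.19 against 27.9 rpm, kept under 6 of 14 other settings and lost with the next 5 nearest cells and with 1 and 10 matched cells per member. The ratio of LTBP2, -3.13, was -2.46 without A951, -5.12 without A953 and -2.44 without A954. BMP2 was at 794 against 694 rpm and BMPR2 at 137 against 151.

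The remaining lists were close to the background. No compared gene was called among 12 of the WNT pathway, 12 of the stress and unfolded protein response, 4 of proliferation and 11 of progenitor and fibroblast surface. Of 13 immediate early and ID genes, the BMP target ID3 was called lower (7.32 against 40.1 rpm), and of 14 hypoxia genes the carbonic anhydrase CA12 was (0.79 against 2.98 rpm). The call of ID3 was kept under 9 and that of CA12 under 5 of 14 other settings. CA12 lost its call without A951 (-2.15) and without A953, and its ratio of -1.92 was -0.73 without A953, -2.83 without A954 and -0.07 on the mean of log2(rpm + 1) over cells. The median log2 ratio was 0.16 for the WNT list, 0.01 for immediate early genes, 0.03 for hypoxia, -0.16 for stress, 0.57 for proliferation and 0.15 for surface genes.

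**Figure D3:**
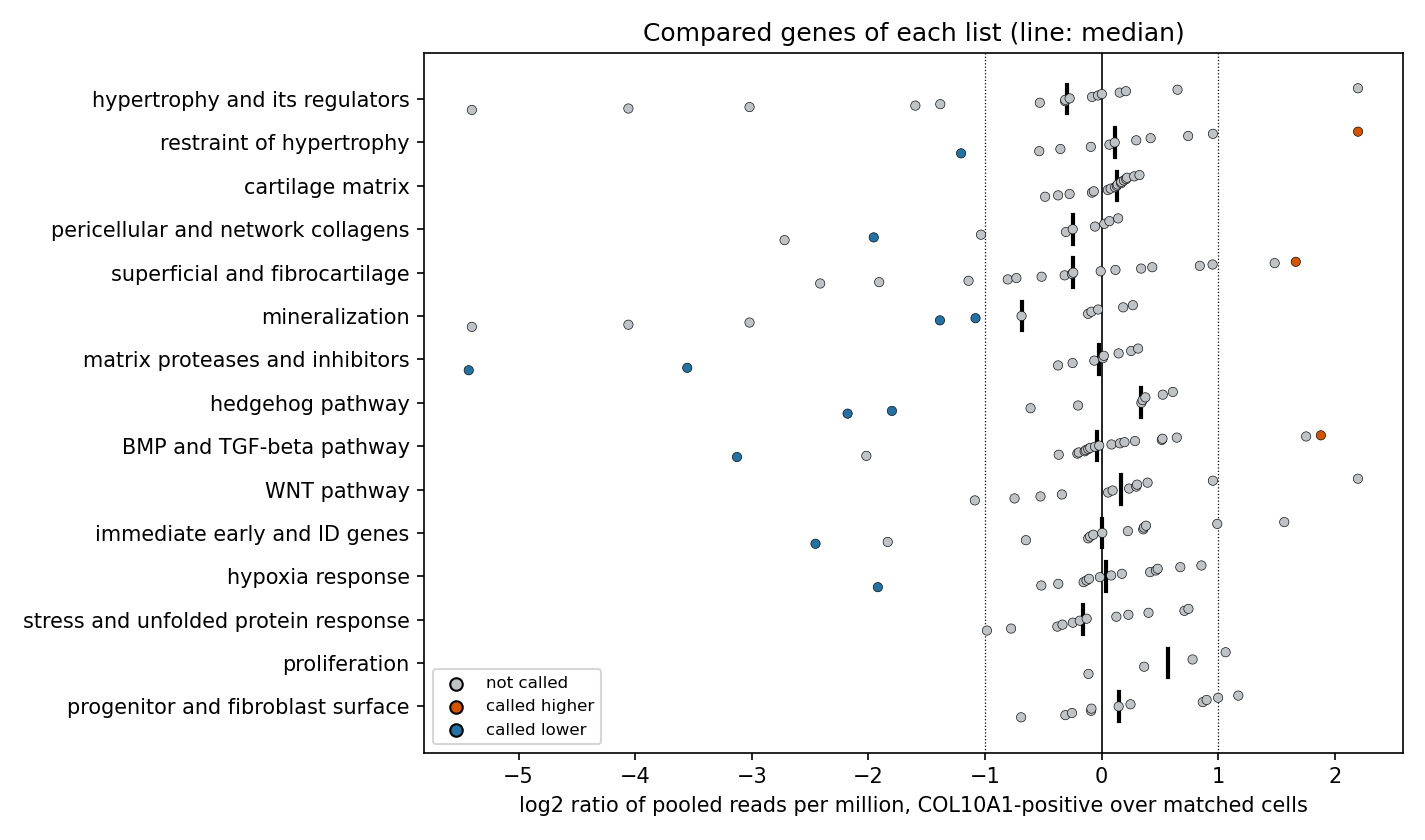
Log2 ratio of pooled rpm between COL10A1-positive and matched cells for each compared gene, by list, with the list median as a line and dotted lines at the size for a call. Most genes lie between -1 and 1, 3 listed genes were called higher (CHRDL2, COL1A2 and SMAD1) and the hypertrophy list held no call.

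Markers of other cell types were mostly low in COL10A1-positive cells, with type I collagen as the exception. The summed level of 8 osteoblast or osteocyte markers was 2653 against 940 rpm, of which COL1A2 alone gave 1651, and 1 of the 5 that were compared was called. By hashtag this sum was 4390, 2126, 789 and 3093 rpm against 1395, 2830, 662 and 485 rpm. BGLAP, or osteocalcin, had a read in 6 of the 78 cells, DMP1 in 4 and SOST in 9. The summed endothelial markers stood at 5.43 against 3.61 rpm, the haematopoietic markers at 33.2 against 68.7 (CD74 the most abundant), and the mural markers at 37.9 against 149 (mostly TAGLN). CD74, which serves antigen presentation, was called lower, and 10 matched cells held 98.1% of its matched reads. Its call was kept under 6 of 14 other settings, and lost with the next 5 nearest cells, with 1 and 10 matched cells per member and without A954. The ratio of CD74, -1.28, was -4.91 without A953. The osteoclast markers stood at 131 against 191 rpm (mostly CTSK, with ACP5 at 0) and the adipocyte markers at 84.9 against 100 rpm (mostly LPL, with FABP4 at 0). The 6 other notochordal markers stood at 70.9 against 80.4 rpm, mostly APOE, and TBXT had a read in 9 of the 78 cells. The part of other cell types in the differences was not tested.

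The called genes with the largest log2 ratios were mostly rare transcripts. At the top of the higher side were CHRDL2, IL34, SOGA1, FILIP1L, ANGPT2, MYOM2, ZAP70, CHAF1B, GPER1, RPS6KA2, CNTNAP1, MPDU1, TSHZ1 and GEMIN4, with ratios of 1.90 to 4.38. Apart from CHRDL2, they had a read in 11.5 to 38.5% of COL10A1-positive cells. IL34, a cytokine that binds the CSF1 receptor, was at 8.18 against 0.39 rpm, ANGPT2, a ligand of the TEK receptor, at 4.21 against 0.51 rpm, and GPER1, a membrane oestrogen receptor, at 30.9 against 7.40 rpm. Their calls were kept under 6, 4 and 3 of 14 other settings. IL34 lost its call without A953 (a ratio of 3.59 against 4.38) and GPER1 without A951 (2.26) and without A953 (1.57 against 2.06). The ratio of ANGPT2, 3.04, was 1.46 without A954, 1.17 without the 5 cells with the most COL10A1 reads and 1.22 in cells thinned to the shallowest, and its call was also lost without A951. With the next 5 nearest cells as the matched set, no gene named here was still called.

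The 15 at the top of the lower side were PRKAB1, B3GALT4, MMP1, IL17B, TSC1, COG4, NAPRT, ERLIN1, DSG2, RELL2, TTLL1, GLP2R, RAPGEF3, TRUB1 and IFI30, with ratios of -5.66 to -3.89. In the median gene of these, 10 of the 390 matched cells held 82.2% of the matched reads. IL17B, a cytokine of the interleukin-17 family, was at 4.25 against 107 rpm, with a read in 28.2% against 32.3% of cells. TSC1, a subunit of the complex that restrains mTOR, was at 0.43 against 10.1 rpm, with a read in 6.41% against 18.7% of cells. The ratio of IL17B, -4.65, was -6.31 without A951 and -3.51 without A953, and its call was lost without A954. That of TSC1, -4.55, was -5.60 without A952. With the next 5 nearest cells, 9 of the 15 were still called.

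The number and direction of the calls depended on the matched cells. With 1 matched cell per member, so that the groups were equal in size, 198 genes were called higher and 129 lower, and with 10 per member 31 were called higher and 410 lower. The next 5 nearest cells gave 42 higher and 350 lower, of which 16 and 158 were among the 60 and 320. Across 6 fits (the main one, the next 5 cells, 1 and 10 cells per member, matching on total reads, and the mean of rpm per cell), 15 genes were called every time. They were HACD2, NELL2 and TNIK on the higher side and AFF3, BTD, COMMD5, CYP1B1, DENND2D, FAHD2A, HIRA, NAPRT, ORC4, TSC1, ZCCHC2 and ZNF558 on the lower side, a set named after its values were seen. The excess of lower over higher calls thus changed with the number of matched cells, and is not given as a feature of COL10A1-positive cells.

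**Figure D4:**
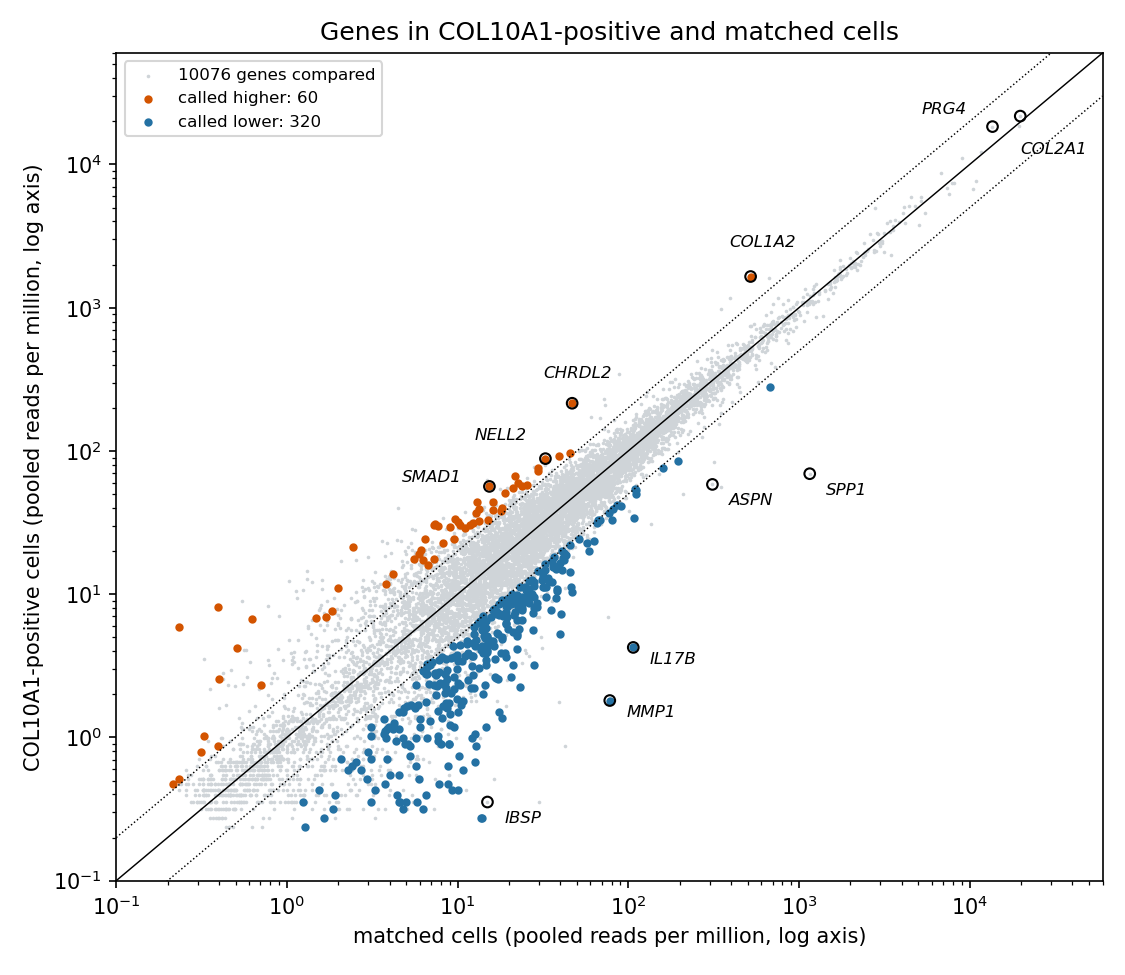
Each point is 1 of the 10076 compared genes at its pooled rpm in matched cells (x) and COL10A1-positive cells (y), both log axes. The solid line marks equal levels and the dotted lines a log2 ratio of 1 in either direction. The 60 genes called higher (orange) and 320 called lower (blue) are mostly of low level, and abundant genes such as COL2A1 and PRG4 lie near the line. The rule fixes this in part, since PRG4 and 127 other compared genes had a read in every cell of both groups and could not be called.

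A scale on which each cell weighs the same gave fewer calls. On the mean of log2(rpm + 1) over cells, 12 genes were called higher (0.119%) and 16 lower (0.159%) under the same rule. These counts also depended on the setting, with 69 higher and 40 lower for 1 matched cell per member, 30 and 41 with 10 or more COL10A1 reads, and none in either direction with 1 or more. Of the genes called on this scale, 5 higher and 4 lower were called in each of 6 fits (the 5 matched cells as described, the next 5, 1 and 10 cells per member, matching on total reads, and 10 or more COL10A1 reads). These are not the 6 fits used for the pooled scale, and the setting with no call is not among them. The values are differences in mean log2 level and the genes were named after they were seen. The 5 higher genes were CHRDL2 (1.72), CRISPLD1 (1.68), PAK3 (1.31), GDF10 (1.31) and NELL2 (1.21). The 4 lower genes were M6PR (-1.66), PHYH (-1.39), MYC (-1.25) and RIOK1 (-1.15). Among listed genes, SMO (1.06) was also called higher on this scale and the phosphate transporter gene SLC20A1 (-1.06) lower, though not in all 6 fits.

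CRISPLD1, which encodes a secreted protein of the cysteine-rich family, was at a median of 369 rpm in COL10A1-positive cells and 131 rpm in matched cells, with differences in mean log2 level of 1.82, 2.48, 1.12 and 1.68 in A951 to A954. GDF10, a TGF-beta family ligand also called BMP3B, was at a median of 57.5 against 6.05 rpm, with differences of 2.14, 1.44, 1.37 and 0.68. Both were higher in all 4 hashtags on this scale, while the pooled level of GDF10 in A954 was 86.7 against 112 rpm. NELL2, a secreted glycoprotein, differed by 0.77, 1.79, 2.86 and 0.04, so that A954 hardly took part. PAK3, a kinase downstream of small GTPases, had a read in 66.7% of COL10A1-positive cells (55.1 to 76.9%) and 48.2% of matched cells (43.1 to 53.3%).

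On the lower side, PHYH, which starts the breakdown of phytanic acid in peroxisomes, had a read in 25.6% of COL10A1-positive cells (16.4 to 36.8%) and 50.5% of matched cells (45.4 to 55.6%). M6PR, a receptor that carries lysosomal enzymes, had a read in 51.3% (39.7 to 62.8%) against 70.8% (66.0 to 75.2%). Its differences in mean log2 level were -2.24, -2.27, -2.41 and -0.49 in the 4 hashtags. MYC, the growth-related transcription factor, was at a median of 14.6 against 67.4 rpm. MYC differed by -1.93, -2.33, -1.56 and -0.16, so that A954 again lay nearest to its matched cells.

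Cells with more COL10A1 reads were set beside those with fewer, each class with its own matched cells. There were 141 cells with 1 to 2 reads, which are not among the 78, 18 with 3 to 9, 56 with 10 to 99 and 4 with 100 or more. For CHRDL2 the differences in mean log2 level were 0.16, 1.89, 1.55 and 3.61 in this order, and for GDF10 0.09, 1.37, 1.17 and 2.94. CRISPLD1 differed by 0.65, 1.88, 1.51 and 2.99. These genes were named for being higher in the 78 cells, which make up the 3 upper classes, so their distance from the cells with 1 to 2 reads is a description that the choice of genes and cells fixes in part. Other called genes did not run the same way, since SMAD1 differed by 0.14, 2.2, 0.73 and -1.01 and COL1A2 by -0.06, 0.48, 0.78 and -1.65. No order within the 3 upper classes can be read for a class of 4 cells.

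PTH1R differed by -0.23, -0.14, -0.14 and -1.82 and COL2A1 by 0.59, 0.33, 0.57 and -0.04 over the same classes. The 4 cells with the most COL10A1 were below their matched cells for PTH1R and level with them for COL2A1. The pooled level of SPP1 was 1638 rpm in the cells with 1 to 2 reads and 19.5, 91.2 and 20.9 rpm in the classes above, against 1128, 605, 770 and 6788 rpm in their own matched cells. A high pooled level was thus also found in cells with 1 to 2 COL10A1 reads. The differences of SPP1 in mean log2 level were 0.04, -0.03, -0.24 and -1.21. IBSP had a read in 17.7%, 0%, 12.5% and 25% of the 4 classes, the last being 1 of 4 cells, against 12.6%, 13.3%, 13.9% and 20% of their matched cells.

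**Figure D5:**
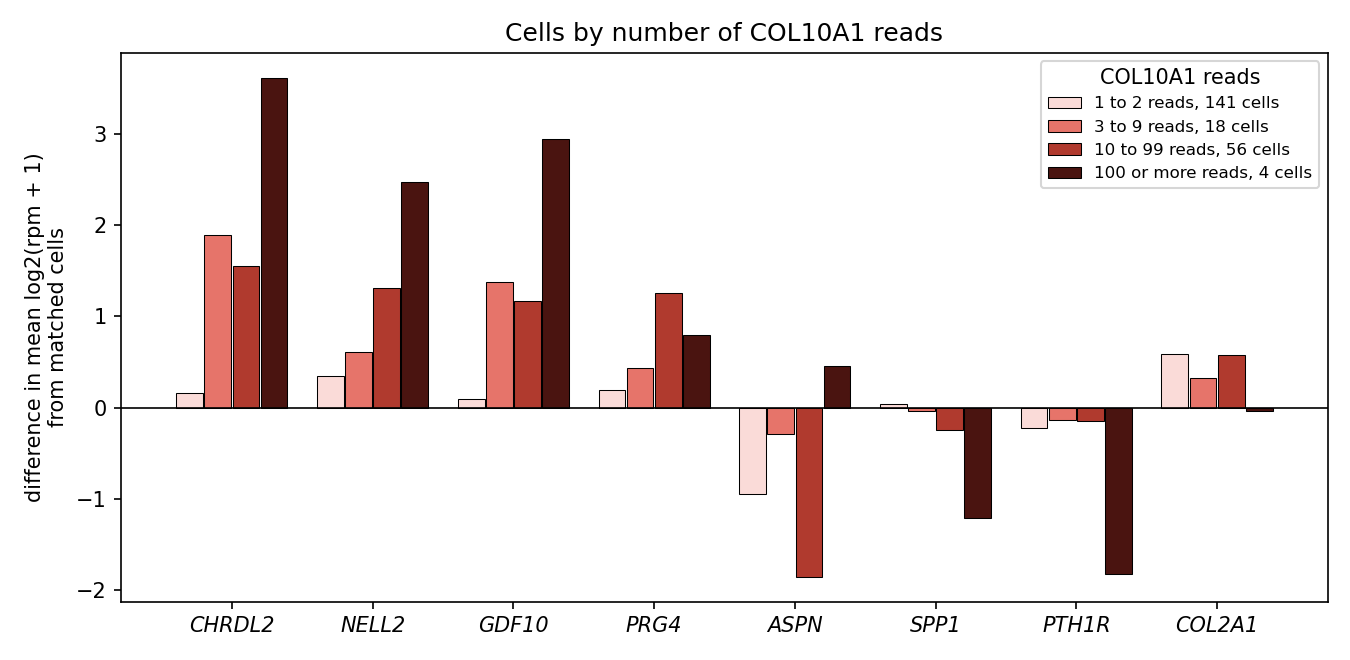
Bars give the difference in mean log2(rpm + 1) between cells with 1 to 2, 3 to 9, 10 to 99 and 100 or more COL10A1 reads (141, 18, 56 and 4 cells) and their own matched cells. CHRDL2, NELL2 and GDF10, named for being higher in the cells with 3 or more reads, are above 0 in each class, and PTH1R is below 0 in each.

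COL10A1-positive cells did not form a group of their own in components that were not corrected for hashtag. Whether differences between hashtags kept them apart was not tested. In 30 principal components of 5000 variable genes, without COL10A1 and KRT19, on average 2.82% of the 20 nearest cells of a COL10A1-positive cell were COL10A1-positive. For matched cells the value was 1.59%, and an even spread over the 5311 cells would give 1.45%. No COL10A1-positive cell had more than 15% of its neighbours from among the 78, and 47 of them (60.3%) had none. They were thus slightly nearer to one another than matched cells were to them, and spread among the other cells.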

How the data were processed

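Single cells were captured on BD Rhapsody beads, amplified by the TAS-seq method and hashed with antibody tags. Per the labels and the study's methods, reads were mapped with HISAT2 2.2.1 and assigned to genes with featureCounts 2.0.2, without molecular identifiers, and the authors deposited read counts per gene and cell. The genome build is not given in the sources used here, so no coordinates are given. The table held 21371 genes and 5723 cells. Of these, 42 cells marked as doublets and 7 without a tag were left out, and no doublet caller was run. Cells held 24907 to 1649566 reads. Another table of 1358 cell columns belongs to no sample described here and was not used.

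With 1 library no test was run. The counts were summed over COL10A1-positive and matched cells as reads per 1000000 reads (rpm), a group under 3 reads was set to 3 reads in a ratio, and intervals are exact (Clopper-Pearson) at 95%, for counting error only. The rule for named genes took the genes of 15 lists and 9 marker lists (247 of 280 genes were in the file) and, on the higher and on the lower side, the 15 called genes whose log2 ratio was furthest from 0; results for some of these genes are not reported here. COL10A1-positive cells, lists and rules were chosen with earlier results of these data known. Neighbours were found in 30 principal components of 5000 variable genes (scanpy 1.11.5, scipy 1.17.1, Python 3.11.15). The comparison was tested on simulated counts of genes with a mean level of 100 rpm or more over the 2 groups. The altered genes were kept to the less abundant of these because raising abundant genes moved the totals and made others look lower. Rarer genes, such as TSC1 and IL34, were not simulated, so that test says nothing about calls at their level. The alternatives were other thresholds, matched cells, scales, filters and depths, and leaving out each hashtag.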

Additional observations from a re-analysis of the deposited data

Results flagged for a closer look

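The log2 ratio of CNMD was -6.74 in hashtag A952, far from -0.97 in A951, -1.63 in A953 and -0.88 in A954. The 11 COL10A1-positive cells of A952 had 1.37 rpm against 146 rpm in their matched cells. These 11 cells held 2186654 reads in all, so 1.37 rpm stands for a few reads only, near the 3 reads used as the lower limit in a ratio. Chance puts about 1 of 20 groups of 4 values past the limit used for such a distance (Dixon's 95% value), and A952 held the fewest COL10A1-positive cells. The limit was applied to each called gene of the lists and to the COL10A1 shares and levels by hashtag, and only CNMD passed it. The pooled ratio had its sign in each hashtag, and the cause of the distance was not tested.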

How the results depend on the processing

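The number of COL10A1-positive cells was 60 with 10 or more reads, 85 with 10 or more rpm, 78 under the study's limits on genes and mitochondrial reads, and 219 with 1 or more reads. With 1 or more reads, 17 genes were called higher and 123 lower, with 1 matched cell per member 198 and 129, on the mean log2 scale 12 and 16, and for genes read in at least 25% of cells 31 and 134. With 10 matched cells per member 31 genes were called higher, against 60. Leaving out each hashtag in turn gave 107 to 131 higher and 490 to 630 lower calls, since a gene then had to keep its sign in 3 hashtags. The share of higher among all calls was 15.8% as reported, 60.6% with 1 matched cell per member, 7.03% with 10, and 42.9% on the mean log2 scale. With 1 or more COL10A1 reads the log2 ratio of GLI2 was 0.11, of MYOM2 -0.14, of DSG2 0.13 and of RELL2 0.38, and with the next 5 nearest cells that of CD74 was 0.17 and of MYOM2 -0.39, each opposite to its reported sign. The cause was not tested. For the 49 named genes with a call, 584 of 686 values lay within the spread between hashtags and 6 had another sign, leaving out 3 settings (the study's limits on genes and mitochondrial reads, and shares of 5% and 25%) that left these ratios as they were. No gene called in one direction was called in the other under any alternative. The neighbour share was 3.21% with 10 and 2.64% with 50 neighbours. The alternatives on the mean log2 scale were added after seeing the data, where 1 or more COL10A1 reads gave 0 calls. No paired analysis was possible because there was 1 library. Reads without molecular identifiers limit the precision of rare transcripts, and 78 cells in 4 hashtags limit every share.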
